A study of Mus musculus with 8 samples.

Results

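The small RNA pathway of the oocyte was examined through 10 genes chosen by symbol, namely Dicer1, Ago1, Ago2, Ago3, Ago4, Drosha, Dgcr8, Xpo5, Tarbp2 and Prkra. Rows with these symbols were taken from a table of ribosome-bound mRNA with 8898 genes and a table of total mRNA with 10530 genes, of which 8537 genes are in both. Dicer1, Ago2, Ago3, Drosha, Dgcr8 and Xpo5 (6 of 10) had a row in both tables. Ago1 and Tarbp2 had a row for total mRNA only, and no row was found for Ago4 and Prkra (2 of 10) in the tables as used here. The samples were 4 pools of 200 ovulated MII oocytes from RiboTagF/F;Zp3-Cre mice, 2 pools from young females of 1 month and 2 from old females, which were retired breeders of 12 to 15 months. Superovulation was by 5 IU PMSG and 10 IU hCG given 48 h apart, with collection 13 h after the hCG. Cre under the Zp3 promoter is active in growing oocytes, so that an HA tag was placed on a ribosomal protein (Rpl22) in young and old oocytes alike. Total mRNA (input) came from 10% of each lysate and ribosome-bound mRNA (HA) from an immunoprecipitation of the remainder, which gave 8 libraries. Young and old differed in breeding history as well as in age, and these cannot be told apart.

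Drosha and its partner Dgcr8 form the Microprocessor, which cuts primary microRNA transcripts into hairpins that exportin 5 (Xpo5) carries out of the nucleus. Dicer, helped by the double-stranded RNA binding proteins Tarbp2 and Prkra, cuts hairpins and long double-stranded RNA into short duplexes, and a strand of each duplex is held by an Argonaute protein, of which Ago2 can slice its target. Mouse oocytes are known for abundant endogenous siRNAs made by a short Dicer isoform whose promoter lies in a retrotransposon inside the Dicer1 gene, whereas microRNAs have little activity in them and loss of Dgcr8 is tolerated.

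Reads on genes numbered 37817382 to 59688578 in the HA libraries and 38276453 to 60052814 in the input libraries. Values are CPM (the authors divided the reads of a gene by the TMM-adjusted size of the library). A count of 3 reads, taken as the floor for counting error only, was worth 0.0388 to 0.111 CPM in HA and 0.0435 to 0.0788 CPM in input. The 9 oocyte markers looked at (Zp1, Zp2, Zp3, Gdf9, Bmp15, Oosp1, Mos, Npm2 and Dppa3) were present in both tables and summed to 9948 to 15261 CPM in HA and 7894 to 8902 CPM in input. Of 12 cumulus and granulosa markers, 3 were present in HA, with sums of 83.8 and 81.7 CPM in old and 156 and 182 CPM in young libraries, and 7 in input, with sums of 32.2 to 186 CPM. The highest value of a single one in HA was 174 CPM, so 1 gene made up most of the largest HA sum. Amh, Foxl2, Lhcgr and Cyp11a1 had no row in either table, and neither did any of 3 blood markers. The part of these other cells in the values below was not tested. Spread between pools of the same age was taken over genes above 3 reads in both. These pools differed at least 2-fold at 62.9% of 7116 such genes in old HA and 43.3% of 8667 in young HA. In input it was 43.0% of 9457 in old and 33.4% of 10160 in young libraries.

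The study centres on CPEB1, a protein that binds cytoplasmic polyadenylation elements (CPEs) in 3'-UTRs, so the annotated 3'-UTRs of the pathway genes were searched for TTTTAT and TTTTAAT on the sense strand (GENCODE M21, build GRCm38). For each gene the longest annotated 3'-UTR was used. Neither motif contains the other. At least 1 CPE was found in 7 of the 10 genes, against 70.6% of the 7940 genes of both tables with an annotated 3'-UTR. The 12742-base 3'-UTR of Ago3 held 21 CPEs, the 11064-base 3'-UTR of Ago2 held 17, and the 3851-base 3'-UTR of Dicer1 held 5. None was found in those of Drosha (169 bases), Tarbp2 (1221 bases) and Xpo5 (1327 bases), which says only that these letters are not in the annotated 3'-UTRs. A CPE began within the last 200 bases of the 3'-UTR in 5 of 10 genes (Dicer1, Ago1, Ago2, Ago3 and Prkra), against 31.8% of all genes searched. For the most abundant members and for Ago2, the element nearest the annotated end is printed with its surroundings as RNA-sense DNA, with the CPE in capitals, since these are the windows in which the members differ in the position of the element. It began 38 bases from the end in Dicer1 (chr12:104687761-104687790, minus strand), 12 bases from the end in Ago3 (chr4:126332732-126332761, minus strand) and 100 bases from the end in Ago2 (chr15:73095926-73095955, minus strand). The last AATAAA, a polyadenylation signal, began 21 bases from the end in Dicer1, 20 in Ago3 and 30 in Ago2. The printed element of Ago3 thus begins after that signal, and those of Dicer1 and Ago2 before it.
Dicer1: tttctttttctTTTTAATaattgtagtcaa
Ago3: gcagaaagctaataaagtTTTTAATcaaaa
Ago2: atgatgtggataTTTTATaaagttattttg
These matches describe letters in the annotation and not bound sites.

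Per kb of exon, Dicer1 was the most abundant member in total mRNA, with 55.9 ± 4.94 CPM per kb (SD, n = 4 input libraries), and the libraries lay between 48.6 and 59.6. Drosha followed with 24.3 ± 9.14 CPM per kb and Ago3 with 17.3 ± 3.06, and the ranges of these overlapped. Xpo5 came next at 6.99 ± 2.57 CPM per kb and Ago2 at 3.86 ± 1.38, again with overlapping ranges. The lowest levels were those of Dgcr8 at 1.22 ± 0.608, Tarbp2 at 0.934 ± 0.911 and Ago1 at 0.277 ± 0.241 CPM per kb, whose ranges overlapped between neighbours. On this scale each of these 4 sets lay above the next in every library. In ribosome-bound mRNA the order was Dicer1 (78.1 ± 27.8 CPM per kb), Ago3 (28.2 ± 11.4), Drosha (8.60 ± 4.54), Xpo5 (3.57 ± 1.01), Dgcr8 (1.59 ± 2.06) and Ago2 (1.07 ± 0.664), with the SD over 4 HA libraries. There, Dicer1 lay above Ago3 and Ago3 above Drosha in every library, while the ranges from Drosha downwards overlapped between neighbours. The authors counted reads over whole genes, introns included, so levels per kb of exon are approximate, and per kb of gene span the input level of Ago3 (2.93 CPM per kb) came before that of Drosha (1.30 CPM per kb), and that of Tarbp2 (0.775) before that of Ago2 (0.608). In HA, Xpo5 (0.601 CPM per kb of span) came before Drosha (0.462).

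**Figure D1:**
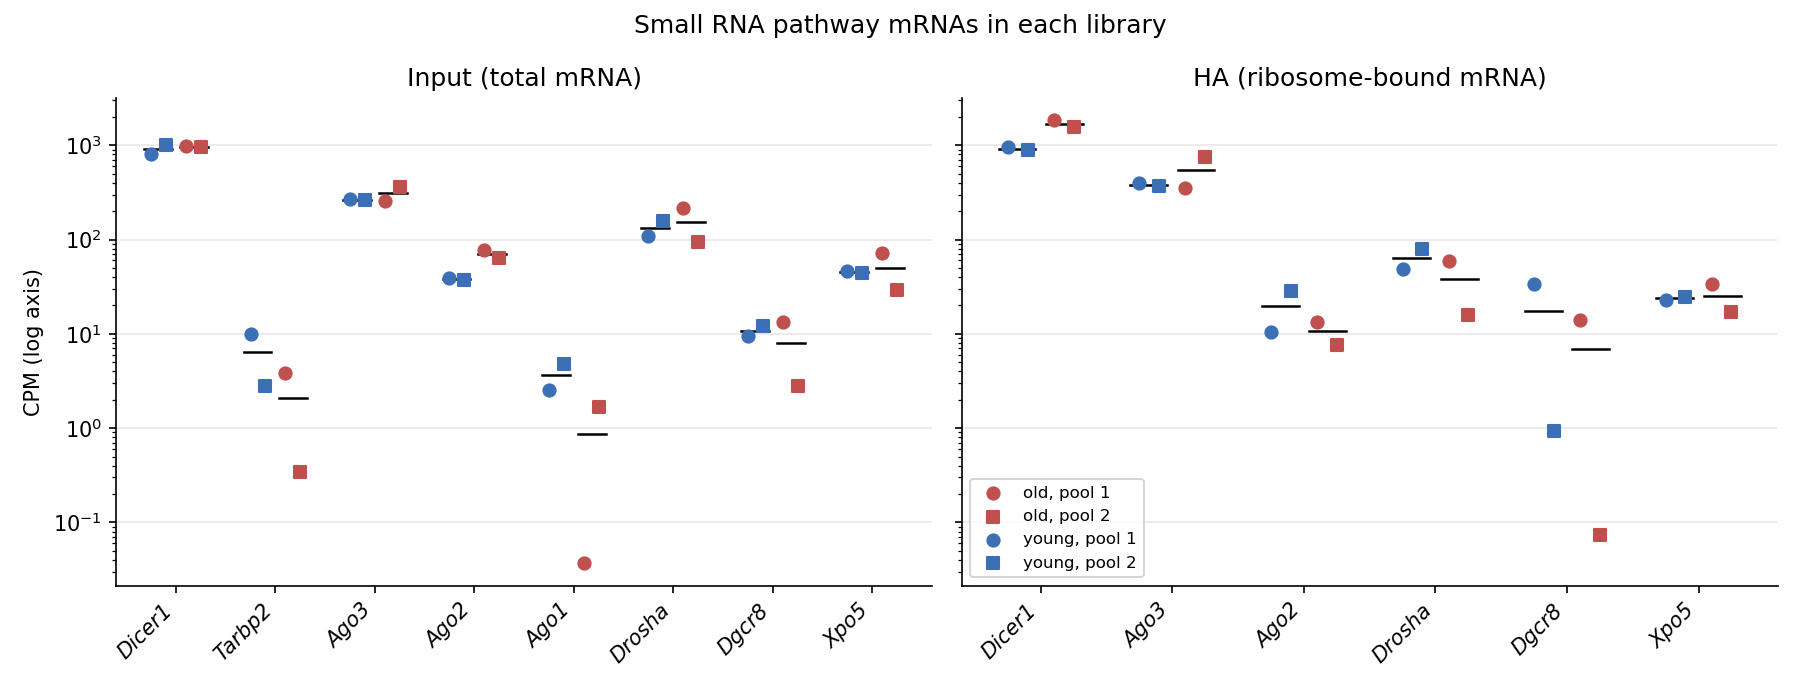
Deposited CPM (log axis) of each pathway gene in the 4 input libraries (left, 8 genes) and the 4 HA libraries (right, 6 genes). Symbols are single libraries, with circles for pool 1 and squares for pool 2, and bars are the means of 2 pools. In HA, Dicer1 sits at 1846 and 1546 CPM in old and 955 and 882 CPM in young oocytes, whereas in input its 4 values lie between 815 and 999 CPM. Both old input symbols of Ago2 (77.1 and 63.3 CPM) lie above both young ones (38.7 and 37.6 CPM).

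Dicer1 (ENSMUSG00000041415.9, chromosome 12, 104687742 to 104751952, minus strand, GRCm38) encodes the endonuclease that makes both microRNAs and endogenous siRNAs. Its ribosome-bound mRNA measured 1846 and 1546 CPM in the old pools and 955 and 882 CPM in the young pools, on 41840 to 77702 reads per library. Both old libraries were above both young ones, and the means were 1696 ± 212 and 918 ± 52.2 CPM (SD, n = 2 each), a ratio of 1.85. The log2 difference between old and young was 0.88 with an SE of 0.34 and a 95% interval of 0.07 to 1.69, and limma gave a two-sided p of 0.0370 and a Benjamini-Hochberg adjusted p of 0.315 over the table. Dicer1 was thus not called at an adjusted p of 0.05, and 14.7% of the genes of the HA table had an unadjusted p under 0.05. Of all HA genes, 4.28% had such a p with a higher level in old pools, and 17.2% had both old libraries above both young ones.

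Total Dicer1 mRNA measured 971 and 962 CPM in the old and 815 and 999 CPM in the young pools. The ages overlapped, with a log2 difference of 0.10 (SE 0.23, 95% interval -0.42 to 0.62) and an adjusted p of 0.979 in limma with Benjamini-Hochberg adjustment. The translation efficiency (TE), HA CPM over input CPM of the same pool, was 1.90 and 1.61 in old and 1.17 and 0.882 in young pools. Both old pools were above both young pools, as for 17.2% of genes, and the log2 difference of 0.78 (SE 0.70, 95% interval -1.01 to 2.57) had an adjusted p of 0.855 in limma with Benjamini-Hochberg adjustment. HA and input were normalized separately, so a TE of 1 has no absolute meaning. The TE of Dicer1 was also ranked within its own pool, on the log2(CPM + 1) scale. It lay at percentile 80.0 and 73.4 in old and at 73.5 and 58.1 in young pools, and these ranks overlapped between the ages. Because 1 CPM was added, a constant factor per library can change such ranks, as quantile normalization can. Dicer1 ranked 97 from the top of 8898 genes by mean HA level and 124 from the top of 10530 genes by mean input level. Reads were summed over the gene, so the oocyte isoform was not separated from the full-length one.

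Tarbp2 (ENSMUSG00000023051.10, chromosome 15, 102518192 to 102523676, plus strand), a Dicer partner that binds double-stranded RNA, was low in total mRNA. It measured 3.80 and 0.341 CPM in old and 10.1 and 2.79 CPM in young pools, on 207, 17, 694 and 106 reads. The ages overlapped, and the log2 difference of -1.35 (SE 1.09) had an adjusted p of 0.892 in limma with Benjamini-Hochberg adjustment. The old pools themselves differed 11.2-fold and the young pools 3.62-fold. A lower value in old pools could mean fewer oocytes with the mRNA or less of it per oocyte, which cannot be told apart in pooled samples for this or any other member.

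Among the Argonautes, which carry the small RNAs, Ago3 took most of the reads. Its share of the CPM per kb of exon summed over the Argonautes in the table was 73.7% and 82.3% in old and 84.0% and 82.9% in young input. In old HA libraries its share was 95.7% and 98.8% and in young ones 96.9% and 91.6%, where Ago2 was the other Argonaute. Ago3, Ago1 and Ago4 are neighbours on the minus strand of chromosome 4, between 126331704 and 126533472, and their sequences are similar, so the division of reads between paralogs is uncertain.

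Ago3 (ENSMUSG00000028842.15, 126331704 to 126429556) silences targets mainly without slicing them. Its HA level was 355 and 751 CPM in old and 396 and 369 CPM in young pools. Input measured 256 and 363 CPM in old and 267 and 263 CPM in young pools. In both fractions the young pools fell between the old ones, and old pool 2 was the highest. The log2 differences were 0.43 (SE 0.49, adjusted p = 0.804) in HA and 0.20 (SE 0.29, adjusted p = 0.950) in input, by limma with Benjamini-Hochberg adjustment. Its TE was 1.39 and 2.07 in old and 1.48 and 1.40 in young pools, with a log2 difference of 0.23 (SE 0.70). Without old pool 2 these 3 differences became -0.11, -0.049 and -0.057.

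Ago2 (ENSMUSG00000036698.10, chromosome 15, 73095844 to 73184935, minus strand) encodes the slicing Argonaute through which endogenous siRNAs act. Total Ago2 mRNA measured 77.1 and 63.3 CPM in old and 38.7 and 37.6 CPM in young pools, on 1432 to 4196 reads. Both old pools were above both young ones, as for 16.4% of the genes in the input table, and the means of 70.2 ± 9.76 and 38.2 ± 0.767 CPM (SD, n = 2 each) gave a ratio of 1.84. The log2 difference was 0.86 (SE 0.45, 95% interval -0.18 to 1.89), with an unadjusted p of 0.0939 and an adjusted p of 0.790 in limma with Benjamini-Hochberg adjustment. Ribosome-bound Ago2 mRNA measured 13.5 and 7.69 CPM in old and 10.5 and 28.6 CPM in young pools, which overlapped (log2 difference -0.72, SE 1.39, adjusted p = 0.907 in limma with Benjamini-Hochberg adjustment). The order of the ages seen in input was thus not seen in HA.

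The TE of Ago2 was 0.175 and 0.121 in old and 0.272 and 0.760 in young pools. Both old pools were below both young ones, as for 20.4% of genes, and the log2 difference was -1.58 (SE 1.19, 95% interval -4.59 to 1.44) with an adjusted p of 0.822 in limma with Benjamini-Hochberg adjustment. By rank within its pool on the log2(CPM + 1) scale, the TE of Ago2 stood at percentile 17.8 and 19.5 in old and at 9.57 and 51.5 in young pools, so the ranks overlapped. The Ago2 gene overlaps Chrac1, and reads from the shared stretch cannot be assigned to either without strand.

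Ago1 (ENSMUSG00000041530.16, chromosome 4, 126435012 to 126468583, minus strand), an Argonaute that silences without slicing, was the member with the fewest reads. Its input level was 0.0368 and 1.69 CPM in old and 2.55 and 4.73 CPM in young pools, on 2, 84, 176 and 180 reads. Old pool 1 was under the floor of 3 reads. Both old pools were below both young ones, as for 18.9% of the genes in the input table, and the log2 difference of -1.44 (SE 0.90) had an adjusted p of 0.828 in limma with Benjamini-Hochberg adjustment.

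Drosha (ENSMUSG00000022191.15, chromosome 15, 12824815 to 12935291, plus strand) encodes the nuclease of the Microprocessor. Its HA level was 59.9 and 15.9 CPM in old and 48.1 and 80.3 CPM in young pools. Input measured 216 and 94.9 CPM in old and 110 and 156 CPM in young pools. In input the young pools lay between the old ones, and in HA old pool 1 lay between the young pools. The log2 differences were -0.98 (SE 0.96, adjusted p = 0.769) in HA and 0.13 (SE 0.44, adjusted p = 0.983) in input, by limma with Benjamini-Hochberg adjustment. Its TE was 0.278 and 0.167 in old and 0.438 and 0.515 in young pools. Both old pools were below both young ones, as for 20.4% of genes, and the log2 difference of -1.11 (SE 1.10, 95% interval -3.91 to 1.70) had an adjusted p of 0.862 in limma with Benjamini-Hochberg adjustment. Within-pool ranks of its TE on the log2(CPM + 1) scale were percentile 25.0 and 23.8 in old and 22.8 and 33.3 in young pools and overlapped.

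Dgcr8 (ENSMUSG00000022718.11, chromosome 16, 18253948 to 18289246, minus strand) encodes the RNA-binding partner of Drosha. Ribosome-bound Dgcr8 mRNA measured 13.9 and 0.0739 CPM in old and 34.1 and 0.934 CPM in young pools, on 583, 2, 2640 and 53 reads. Within each age, pool 1 and pool 2 were far apart, and old pool 2 was under the floor of 3 reads. Total Dgcr8 mRNA was 13.2 and 2.79 CPM in old and 9.39 and 12.1 CPM in young pools. The log2 differences of -1.05 (SE 2.02) in HA and -0.67 (SE 1.06) in input had adjusted p-values of 0.907 and 0.960 in limma with Benjamini-Hochberg adjustment. Its TE ran from 0.0265 to 3.63 over the 4 pools, and its log2 difference of -0.37 had an SE of 1.76, so that the direction was not resolved. The gene overlaps Trmt2a and Mir1306 among others, and the counting did not use strand.

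Xpo5 (ENSMUSG00000067150.5, chromosome 17, 46202782 to 46243598, plus strand) encodes the export receptor of microRNA precursors. Its HA level was 33.7 and 16.9 CPM in old and 23.1 and 24.4 CPM in young pools. Its input level was 71.8 and 29.2 CPM in old and 46.1 and 44.5 CPM in young pools. The young pools lay between the old ones in both fractions. The TE was the most even of all members, at 0.470 and 0.578 in old and 0.501 and 0.547 in young pools. The log2 differences between the ages were 0.01 (95% interval -2.60 to 2.62) in HA, 0.02 (95% interval -1.28 to 1.31) in input and -0.01 (95% interval -2.44 to 2.43) in TE. Differences of 4-fold in either direction are inside the intervals for HA and TE.

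Drosha, Dgcr8 and Xpo5, which act before Dicer on microRNA precursors, were each higher in old pool 1 than in old pool 2. In input, old pool 1 was above old pool 2 by 2.27-fold for Drosha, 4.73-fold for Dgcr8 and 2.46-fold for Xpo5. In HA, old pool 1 was above old pool 2 by 3.77-fold for Drosha and 2.00-fold for Xpo5. Dicer1 differed between the same pools by 1.01-fold in input and 1.19-fold in HA, and Ago3 ran the other way at 0.705-fold and 0.473-fold. Old pool 1 was also the higher for Tarbp2 (11.2-fold in input) and Ago2 (1.22-fold in input and 1.76-fold in HA), which do not act before Dicer. Ago1 was the lower in old pool 1 in input, on 2 reads there, and Dgcr8 in HA had 2 reads in old pool 2. No fold is given for these, as both counts are under the floor of 3 reads. Over all genes above 3 reads in both pools, the median fold between the old pools in either direction was 1.75 in input and 2.86 in HA, so the value of Xpo5 in HA was below it. Members are not replicates, and this describes 2 pools.

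**Figure D2:**
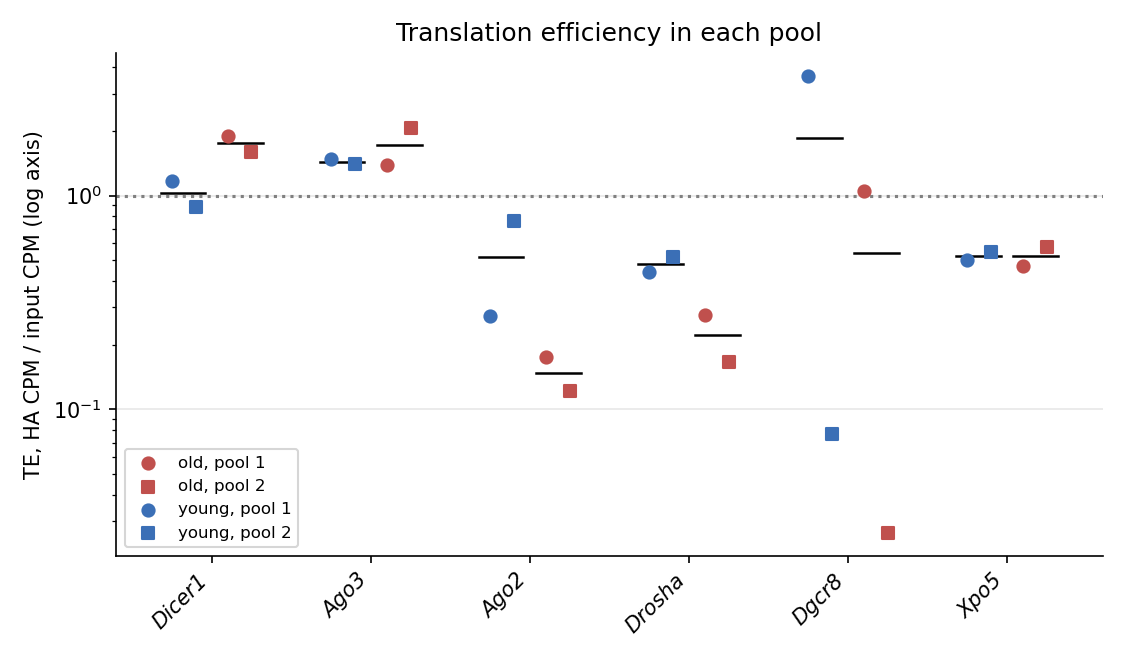
Translation efficiency (TE, HA CPM over input CPM, log axis) of the 6 genes in both tables, for each of the 4 pools. Circles are pool 1, squares are pool 2, bars are means of 2 pools, and the dotted line marks equal CPM. Old pools lie above young pools for Dicer1 and below them for Ago2 and Drosha, while Dgcr8 runs from 0.0265 to 3.63.

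No member passed an adjusted p of 0.05 by limma (Benjamini-Hochberg) in HA (0 of 6), input (0 of 8) or TE (0 of 6). At an unadjusted p under 0.05 there was 1 in HA (Dicer1) and none in input and TE, where 6.18% and 6.56% of all genes passed. By edgeR's quasi-likelihood test on the recovered reads, Dicer1 in HA had an unadjusted p of 0.0435 and an adjusted p of 0.357. Its unadjusted p was 0.138 by edgeR's likelihood ratio test and 0.173 by DESeq2, which gave it an adjusted p of 0.536. With limma the unadjusted p was 0.484 with equal sums and 0.691 after quantile normalization. Over all genes, limma with Benjamini-Hochberg adjustment called 0% in HA, 0.0095% in input and 0% in TE, and the quasi-likelihood test called none in any of them. DESeq2 called 5.71% of genes in HA, 1.08% in input and 3.54% in TE, and edgeR's likelihood ratio test 3.32% in HA and 0.475% in input, again with no member among them. Of the 6 members in HA, 3 had a higher and 3 a lower mean on the log2 scale in old pools, with a median of -0.35 against -0.14 over all genes, of which 45.9% were higher. No member had both old HA libraries below both young ones, as 24.7% of genes did. In input 5 of 8 were higher (48.6% of all genes), with a median of 0.06 against -0.03, and in TE 2 of 6 (47.1% of all genes), with a median of -0.19 against -0.10. For 2 pools against 2, the smallest two-sided p of an exact permutation test is 0.333.

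**Figure D3:**
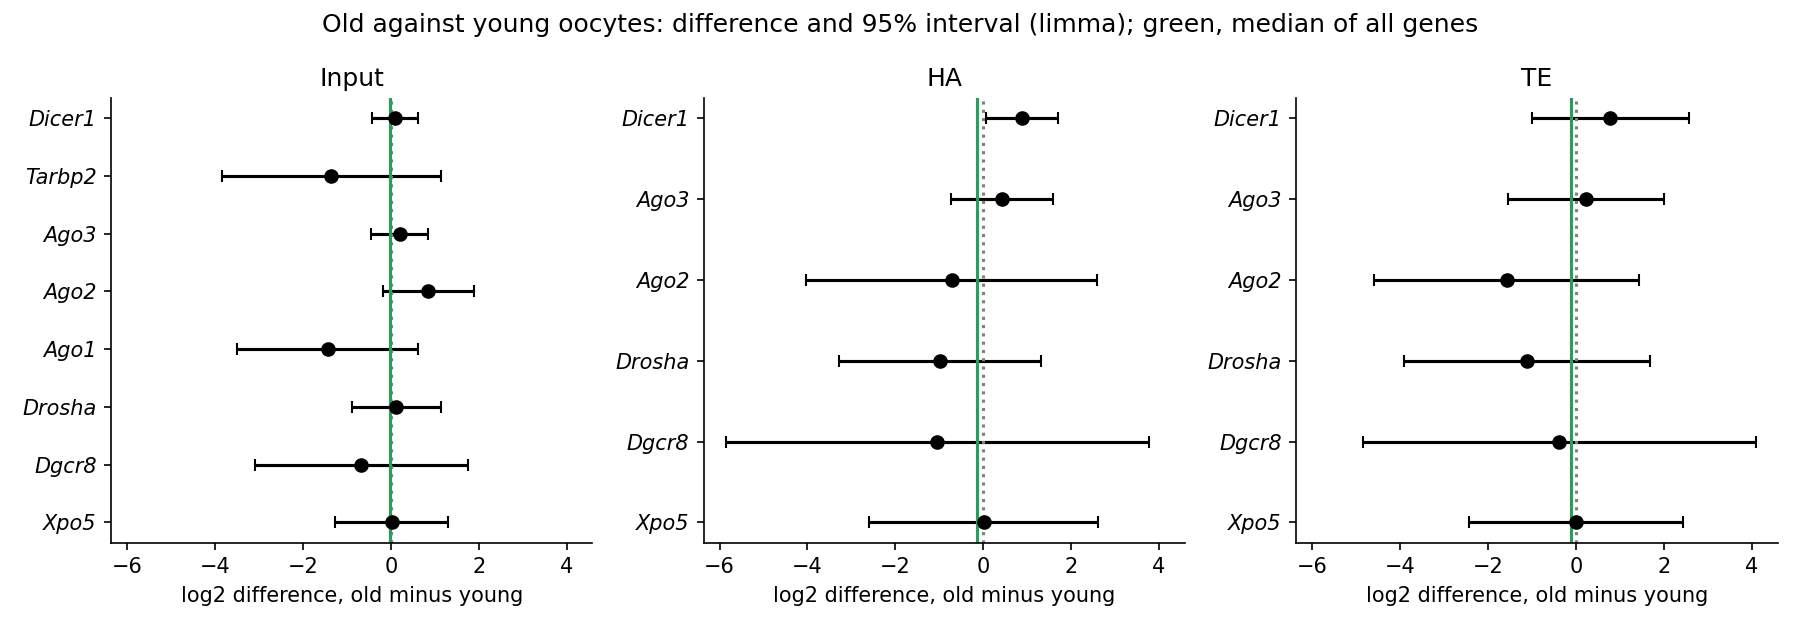
Log2 difference between old and young oocytes with its 95% interval (limma, log2(CPM + 1) scale) for the members in input, HA and TE. Green lines are the medians of all genes (-0.03, -0.14 and -0.10) and dotted lines mark no difference. The interval of Dicer1 in HA, 0.07 to 1.69, is the one that leaves out 0, before adjustment over the table.

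The difference between the ages in HA depended on the level of the gene, and the members are spread over these levels. Of the 890 genes with the highest mean HA level (253 CPM or more), which include Dicer1 and Ago3, 53.1% had both old libraries above both young ones, and their median log2 difference was 0.61. Dicer1, at 0.88, was above that median and Ago3, at 0.43, below it. Among the 890 genes of lowest level the median was -0.97. Drosha (-0.98) lay below the median of -0.02 for genes of its level, Ago2 (-0.72) and Dgcr8 (-1.05) below a median of -0.46, and Xpo5 (0.01) above a median of -0.27. In input the level mattered less, and Ago2 (0.86) lay above a median of 0.08 for genes of its level, of which 21.2% had both old libraries above both young ones. The TE of Dicer1 (0.78) lay above the median of 0.51 for the genes of highest HA level, of which 44.1% had both old pools above both young ones. The TE of Drosha was read against genes of a similar HA level, of which 13.8% had both old pools below both young ones, and that of Ago2 against genes of which 22.2% did.

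**Figure D4:**
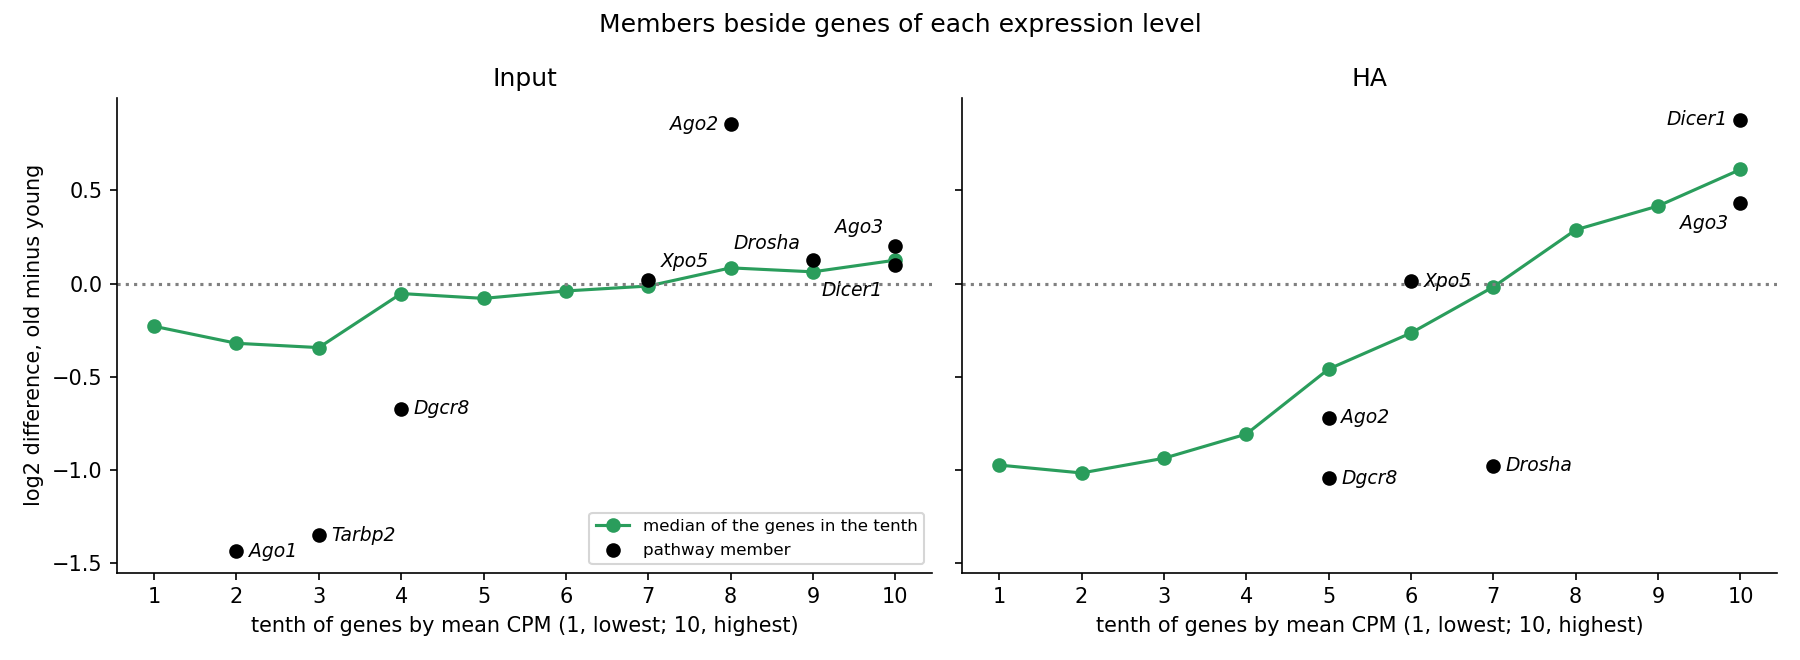
Log2 difference between old and young oocytes against expression level, with the genes of each table cut into 10 equal classes by mean CPM. Green points are class medians, which run from -1.02 to 0.61 in HA, and black points are pathway members. Dicer1 and Ago3 fall in the top class of HA on either side of its median, and Ago2 in input stands above the medians of all classes.

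The difference of Dicer1 in HA became smaller under both other scalings. The median of all genes in HA was -0.14 as deposited, -0.68 with all libraries set to equal sums and -0.05 after quantile normalization. Dicer1 in HA became 1655 and 1106 in old against 1238 and 1060 CPM in young libraries with equal sums, so that the ages overlapped, with a log2 difference of 0.24. After quantile normalization the ages also overlapped and the difference was 0.14. Relative to the median of all genes, the difference of Dicer1 in HA was 1.02 as deposited, 0.92 with equal sums and 0.20 after quantile normalization. In TE, Dicer1 overlapped between the ages under both alternatives (0.33 and 0.15).

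Ago2 in input kept both old pools above both young pools under either scaling, with log2 differences of 0.67 and 0.76. For Drosha, both old pools kept the lower TE under either scaling (-1.54 and -1.14), and in HA both old libraries then lay below both young ones (-1.60 and -1.13), as did 35.7% and 21.7% of all genes. The same order appeared for Ago2 in HA with equal sums (-1.30), and for Ago3 in TE under either scaling (-0.22 and -0.26), where as deposited the ages overlapped with a difference of 0.23. With equal sums it also appeared for Xpo5 in TE (-0.43) and Dicer1 in input (-0.091), as it did for 28.1% of all genes in TE and 24.7% in input. Ago2 in TE kept this order with equal sums (-1.97) and overlapped after quantile normalization (-1.04). Ago1 in input kept both old pools lower with equal sums (-1.55) and overlapped after quantile normalization (-0.97).

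Ratios of reads between members within a library do not change when a library is multiplied by a constant, but quantile normalization can change them. There were 137 and 201 Dicer1 reads per Ago2 read in old HA libraries and 90.6 and 30.8 in young HA libraries. In input the order was turned, with 12.6 and 15.2 in old and 21.0 and 26.5 in young oocytes. The ages did not overlap in either fraction. After quantile normalization the HA ratio of Dicer1 to Ago2 was 131 and 89.3 in old against 183 and 35.5 in young pools, an overlap, while the other orders named here held. Dicer1 reads per Drosha read in HA came to 30.8 and 97.3 in old and 19.8 and 10.97 in young oocytes, whereas in input the ages overlapped at 4.50 to 10.1. Ago3 reads per Ago2 read in input came to 3.32 and 5.73 in old and 6.89 and 6.98 in young oocytes, and those in HA overlapped. These ratios and their quantile normalization were chosen after the values of the members were known and carry no test.

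Other genes of small RNA metabolism were followed in 4 lists. None of their genes passed an adjusted p of 0.05 by limma (Benjamini-Hochberg) in HA, input or TE, so their values are given as measured. Those named for an unadjusted p under 0.05 are read against 4.28% of all genes higher and 10.5% lower in old HA at that level, 2.71% and 3.48% in input, and 2.33% and 4.23% in TE. List medians are read against those of all genes, -0.14 in HA, -0.03 in input and -0.10 in TE as deposited. With equal sums these were -0.68, -0.19 and -0.48, and after quantile normalization -0.05, -0.009 and -0.03. Among 10 Microprocessor and export partners, 4 had a higher and 6 a lower mean in old HA libraries (median log2 difference -0.18, and 0.12 after quantile normalization), and the same numbers held in input (median -0.20). In TE, 5 were higher and 5 lower as deposited (median 0.13) and with equal sums (median -0.31). These medians were 0.24 and 0.17 above those of all genes. The genes past an unadjusted p of 0.05 were Srrt in HA and Srsf3 in TE, both lower in old pools. Srrt, an adaptor between the cap-binding complex and Drosha, had 0.0950 and 0.185 CPM in old against 6.98 and 17.2 CPM in young HA libraries, on 4, 5, 540 and 973 reads (log2 difference -3.40, limma adjusted p = 0.297). The old libraries stood just above the floor, far below both young ones. The HA row of Srrt thus rests on the young libraries. Among HA genes of a similar level, 38.3% had both old libraries below both young ones. Srsf3, a splicing factor that also helps the Microprocessor find hairpins, had a TE of 0.687 and 0.211 in old and 2.30 and 3.55 in young pools (log2 difference -2.82, limma adjusted p = 0.724). The most abundant partners were the RNA helicase Ddx5 in HA (205 and 536 CPM in old, 202 and 214 in young libraries) and Khsrp, which binds microRNA precursors, in input (137 and 113 CPM in old, 147 and 77.4 in young libraries).

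Of 17 genes for RISC loading and effectors, 15 were in each table, Fkbp4 and Ajuba being without a row. In input, 10 of 15 had a lower mean in old pools (median log2 difference -0.41), and 7 had both old libraries below both young ones, where 18.9% of all genes did. In TE, 12 of 15 had a higher mean in old pools (median 0.61), against 47.1% of all genes, and 8 had both old pools above both young ones, where 17.2% of all genes did. With equal sums 10 of 15 were higher in TE (median 0.19, against -0.48 over all genes). Of these 15, 4 then had both old pools above both young ones, where 10.4% of all genes did. Relative to the median of all genes, the TE median of the list was 0.72 as deposited and 0.67 with equal sums. In HA, 10 of 15 were higher (median 0.27), and 6 of 15 (median -0.20) with equal sums. Relative to the median of all genes, the HA median of the list was 0.41 as deposited, 0.48 with equal sums and 0.14 after quantile normalization. Hsp90ab1, a chaperone used to load Argonautes, had 782 and 1233 CPM in old and 571 and 364 CPM in young HA libraries (log2 difference 1.10, limma adjusted p = 0.325). Snd1, a nuclease found in RISC, had 28.6 and 10.6 CPM in old and 52.6 and 51.5 CPM in young input libraries (log2 difference -1.52, limma adjusted p = 0.778). For neither did the ages overlap. The most abundant of the list in both fractions was Hsp90aa1, with 639 to 1629 CPM in HA and 916 to 1270 CPM in input, where the ages overlapped.

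Of 11 genes that tail, trim or degrade small RNAs, 10 were in the HA table and 11 in the input table. In HA, 3 had a higher and 7 a lower mean in old pools (median log2 difference -0.28), in input 5 and 6 (median -0.01), and in TE 5 and 5 (median -0.05). With equal sums these were 1 and 9 in HA (median -0.90), 1 and 10 in input (-0.16) and 4 and 6 in TE (-0.49). The medians of all genes were then -0.68, -0.19 and -0.48. Lin28b, which blocks maturation of let-7 precursors, measured 2.21 and 3.22 CPM in old against 45.1 and 37.1 CPM in young HA libraries (log2 difference -3.51, limma adjusted p = 0.323). Its input levels were 49.9 and 34.1 CPM in old and 31.6 and 44.9 CPM in young libraries and overlapped. Its TE was 0.0443 and 0.0944 in old and 1.43 and 0.824 in young pools, without overlap (log2 difference -3.64, limma adjusted p = 0.724). Dis3l2, the exonuclease that degrades tailed let-7 precursors, was counted 0 times in HA of both old pools and 456 and 773 times in HA of the young pools. Its HA row thus rests on the young libraries alone, and a lower old level was fixed by that (limma adjusted p = 0.297). Among HA genes of a similar level, 38.3% had both old libraries below both young ones. The input of Dis3l2 held 143, 1, 201 and 1 reads in old 1, old 2, young 1 and young 2, so no TE is given. The nuclease Xrn2 had 868 and 614 CPM in old and 309 and 343 CPM in young HA libraries (log2 difference 1.16, limma adjusted p = 0.300), which did not overlap. It was also the most abundant of the list, and its input ran from 122 to 196 CPM with overlap. Zswim8, a ubiquitin ligase adaptor that removes Argonautes bound to certain targets, had 54.1 and 41.2 CPM in old and 107 and 98.1 CPM in young input libraries (log2 difference -1.10, limma adjusted p = 0.778).

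The piRNA list named 21 genes, of which 15 were in the HA and 16 in the input table, and Piwil2 and Piwil4 had no row in either. In HA, 5 had a higher and 10 a lower mean in old pools (median log2 difference -0.33), in input 5 and 11 (median -0.18), and in TE 5 and 10 (median -0.35, and 0.04 after quantile normalization). Tdrd12, a helicase-like Tudor protein, had 80.3 and 60.2 CPM in old and 207 and 136 CPM in young input libraries (log2 difference -1.26, limma adjusted p = 0.778), and the ages did not overlap. The most abundant was Tdrd1, a Tudor scaffold protein, with 1011 and 884 CPM in old and 1162 and 868 CPM in young HA libraries. Its input level was 1619 and 1643 CPM in old and 1267 and 1459 CPM in young libraries. Tdrd1 ranked 159 from the top in HA and 52 from the top in input, and its ages did not overlap in input.

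The genes whose centred log2 profiles over the 8 libraries came nearest that of Dicer1 were Eif4g2 (Euclidean distance 0.417), Mdm2 (0.432) and Papd7 (0.444), where the median distance of all genes was 3.28. For Ago2 they were Nus1 (0.765), Rybp (0.770) and Tfdp2 (0.915), with a median distance of 3.70. HA and input libraries of 4 pools make up these profiles, so the 8 points are not independent.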

How the data were processed

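RNA-Seq libraries were HA and input fractions of 4 pools (2 old, 2 young), which the study describes as biologically independent. The authors trimmed reads (Trimmomatic 0.36), aligned them to GRCm38 with HISAT2, counted them per gene with HTSeq without strand, and deposited a normalized signal, CPM after TMM, set separately for HA and input. A filter of 10 CPM in 2 libraries is stated for these tables, but they hold genes under it. All values were whole multiples of 1 read (100% within 1e-06 reads), so reads were recovered from the deposited CPM. Columns left out numbered 0.

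Old and young were compared with limma 3.58.1 (eBayes with trend) on log2(CPM + 1), two-sided, with Benjamini-Hochberg adjustment over the whole table. On this scale differences of low genes are understated. TE was tested as log2(HA CPM + 1) minus log2(input CPM + 1) per pool. Levels of HA against input were not tested. edgeR 4.0.16 and DESeq2 1.42.0 on recovered reads, other pseudocounts (0.1 and 5), scalings, a filter, a replicate block and leaving out pools were alternatives. limma (with and without the block), edgeR and DESeq2 were tested on simulated data.

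All 10 members were named, and from the 4 lists the genes with an unadjusted limma p under 0.05 and the most abundant gene. Members and lists were chosen with earlier results of these data known. Coordinates, exon lengths and 3'-UTRs are from GENCODE M21, which matched 99.7% of HA and 99.8% of input genes. R 4.3.3 and Python 3.11.15 were used.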

Additional observations from a re-analysis of the deposited data

How the results depend on the processing

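No member had an adjusted p under 0.05 in limma, edgeR or DESeq2 under any alternative run, while counts over all genes moved with the tool. In HA, the count of genes called was 0 in limma, 9 with the replicate block, 295 by edgeR's likelihood ratio test and 508 by DESeq2, and leaving out 1 pool in turn gave 0 to 634 (393 without old pool 1, 3 without old pool 2, 0 without young pool 1 and 634 without young pool 2). In input it was 1 in limma, 0 by edgeR's quasi-likelihood test, 50 by the likelihood ratio test, 114 by DESeq2 and 0 to 2 with 1 pool left out. In TE it was 0 in limma and 302 by DESeq2. With 1 pool left out, the lone pool of that age was assumed to vary like the others. The replicate numbers of old and young pools share only a number, with a same-number correlation of 0.0786 in HA, 0.0269 in input and 0.0108 in TE, and the block changed no call of a member. Of 258 member values under the alternatives, 229 kept their direction and 29 reversed, all of them short of the threshold. The 9 of 20 results that never reversed were Dicer1 and Drosha in HA and TE, Ago2 in HA, input and TE, and Tarbp2 and Ago1 in input. For Dicer1 in HA the difference ran from 0.14 to 1.09 and the adjusted p from 0.214 to 0.936. Reversed values under quantile normalization were -0.22 for Ago3 in HA, -0.26 for Ago3 in TE, -0.0062 for Dicer1 in input, -0.066 for Xpo5 in input and 0.13 for Xpo5 in TE. With equal sums they were -0.21 for Ago3 in HA, -0.22 for Ago3 in TE, -0.60 for Xpo5 in HA, -0.17 for Xpo5 in input, -0.091 for Dicer1 in input and -0.060 for Drosha in input. DESeq2 gave 0.16 for Xpo5 in TE. With 1 pool left out, differences in HA ran from -0.11 to 0.97 for Ago3, -3.14 to 1.05 for Dgcr8 and -0.47 to 0.49 for Xpo5. Without a reversal, they ran in HA from -1.90 (without old pool 1) to -0.054 (without old pool 2) for Drosha and from -1.40 (without young pool 1) to -0.041 (without young pool 2) for Ago2, and in input from -2.27 (without old pool 1) to -0.43 (without old pool 2) for Tarbp2 and from -2.12 (without old pool 2) to -0.75 (without old pool 1) for Ago1. In input they ran from -0.048 to 0.25 for Dicer1, -0.46 to 0.71 for Drosha, -0.049 to 0.45 for Ago3, -1.63 to 0.28 for Dgcr8 and -0.62 to 0.65 for Xpo5. In TE they ran from -0.057 to 0.52 for Ago3, -2.63 to 1.89 for Dgcr8 and -0.16 to 0.15 for Xpo5. Without a reversal, TE ran from -2.27 (without young pool 1) to -0.88 (without young pool 2) for Ago2. It ran from -1.44 to -0.77 for Drosha and from 0.58 to 0.99 for Dicer1. The cause of these changes was not tested. Ago1, Tarbp2 and Dgcr8 had 2 to 17 reads in at least 1 library.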
